A study of Mus musculus with 46 samples.

Results

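The stromal cells of the sham-operated mouse kidney, sorted by flow cytometry on PDGFRB (platelet-derived growth factor receptor beta), were compared with the 3 other populations sorted from sham kidneys. These were proximal tubular (PT) cells sorted with the lectin LTL, macrophages sorted on F4/80 and endothelial cells sorted on CD31. The samples were chosen by their labels alone and numbered 15 of the 46 samples of the series, of which 44 had a usable column of values: 4 stromal, 3 PT, 4 macrophage and 4 endothelial samples. No column was used for the third PT sham sample. All mice were wild-type male C57BL/6 animals aged 8 to 12 weeks, and the sham group had surgery without obstruction. The other groups had unilateral ureteric obstruction (UUO) or reversal of the obstruction (rUUO). The labels do not state the day of culling after UUO, for which the study's methods give day 2 and day 7, and the methods give 14 days after reversal for rUUO. The 15 UUO and 14 rUUO samples of the same 4 populations were used only to look at the sham result in samples that had no part in it. The gate selected cells by a surface protein that fibroblasts share with the mural cells of vessels and glomeruli.

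PDGFRB is the receptor for platelet-derived growth factor B, and it is carried in the kidney by interstitial fibroblasts, pericytes, vascular smooth muscle cells, mesangial cells and the renin cells of the juxtaglomerular apparatus. Fibroblasts lay down and remodel the interstitial matrix of fibrillar collagens, proteoglycans and elastic fibres. Pericytes and smooth muscle cells wrap capillaries and arterioles and set vessel tone, while mesangial cells hold the capillary loops of the glomerulus together and renin cells release the enzyme that starts the renin-angiotensin cascade.

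Values are FPKM, which scale the fragments of a gene by its length and by the size of the library, and were rescaled so that the genes outside the mitochondrial chromosome summed to 1000000 in each sample. The 37 mitochondrial genes took 34.0 to 45.8% of the FPKM sum in stromal samples, 32.5 to 43.5% in endothelial samples, 24.6 to 28.01% in macrophage samples and 68.9 to 75.6% in PT samples. Relative depth, read from the steps between low FPKM values and set to 1 at the median sham sample, was 0.922 to 1.11 in stromal samples and 0.706 to 1.52 in the others. Read totals are not part of the values used, so the absolute depth is unknown. Differences are given on the scale of log2(rescaled FPKM + 1) with their standard error (SE), and were tested by limma in 1 fit over the 15 sham samples with Benjamini-Hochberg adjustment over all 16934 genes tested, at an adjusted p threshold of 0.05. The labels do not say whether each sample came from its own animal, so these p-values measure the spread between samples. In sorted bulk samples, fewer cells of a type and less RNA per cell cannot be told apart.

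The label of the stromal samples was checked first against Pdgfrb, Col1a2 and Dcn. Pdgfrb, the gene of the sorted surface protein, had 491, 569, 620.2 and 419 rescaled FPKM in stromal samples 1 to 4. It had 2.44 to 3.05 in PT, 0.306 to 2.11 in macrophage and 5.91 to 16.3 in endothelial samples, so that the groups did not overlap. Col1a2, a chain of fibrillar collagen I, had 313, 458, 1025 and 329 in the stromal samples and at most 30.9 in any other sample. Dcn, which encodes the collagen-binding proteoglycan decorin, had 765, 1138, 2433 and 1245 in the stromal samples and at most 44.4 elsewhere. All 3 genes were therefore far higher in each stromal sample than in every other sham sample, although Dcn and Col1a2 varied 3.18- and 3.27-fold among the stromal samples themselves. The log2 difference from the nearest other population was 5.58 ± 0.31 (SE) for Pdgfrb, 4.35 ± 0.41 for Col1a2 and 5.56 ± 0.46 for Dcn (limma, adjusted p = 1.80e-09, 4.00e-07 and 2.76e-08).

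Markers of the other populations were low in the stromal samples. The 10 macrophage markers summed to 203 to 269 rescaled FPKM in stromal samples against 23569 to 30307 in macrophages, and none was at 0. The 12 PT markers summed to 247 to 424 against 22789.9 to 26618, and the 10 endothelial markers to 335 to 401 against 7738 to 9643. All 12 PT markers were lower in stromal than in PT samples, all 10 macrophage markers lower than in macrophages and all 10 endothelial markers lower than in endothelial cells, where 11.5%, 12.4% and 7.92% of all genes tested were lower. Cd3g, of T cells, and S100a8, of neutrophils, were at 0 in every stromal sample, and the 6 lymphocyte markers summed to 0.0800 to 1.32.

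**Figure D1:**
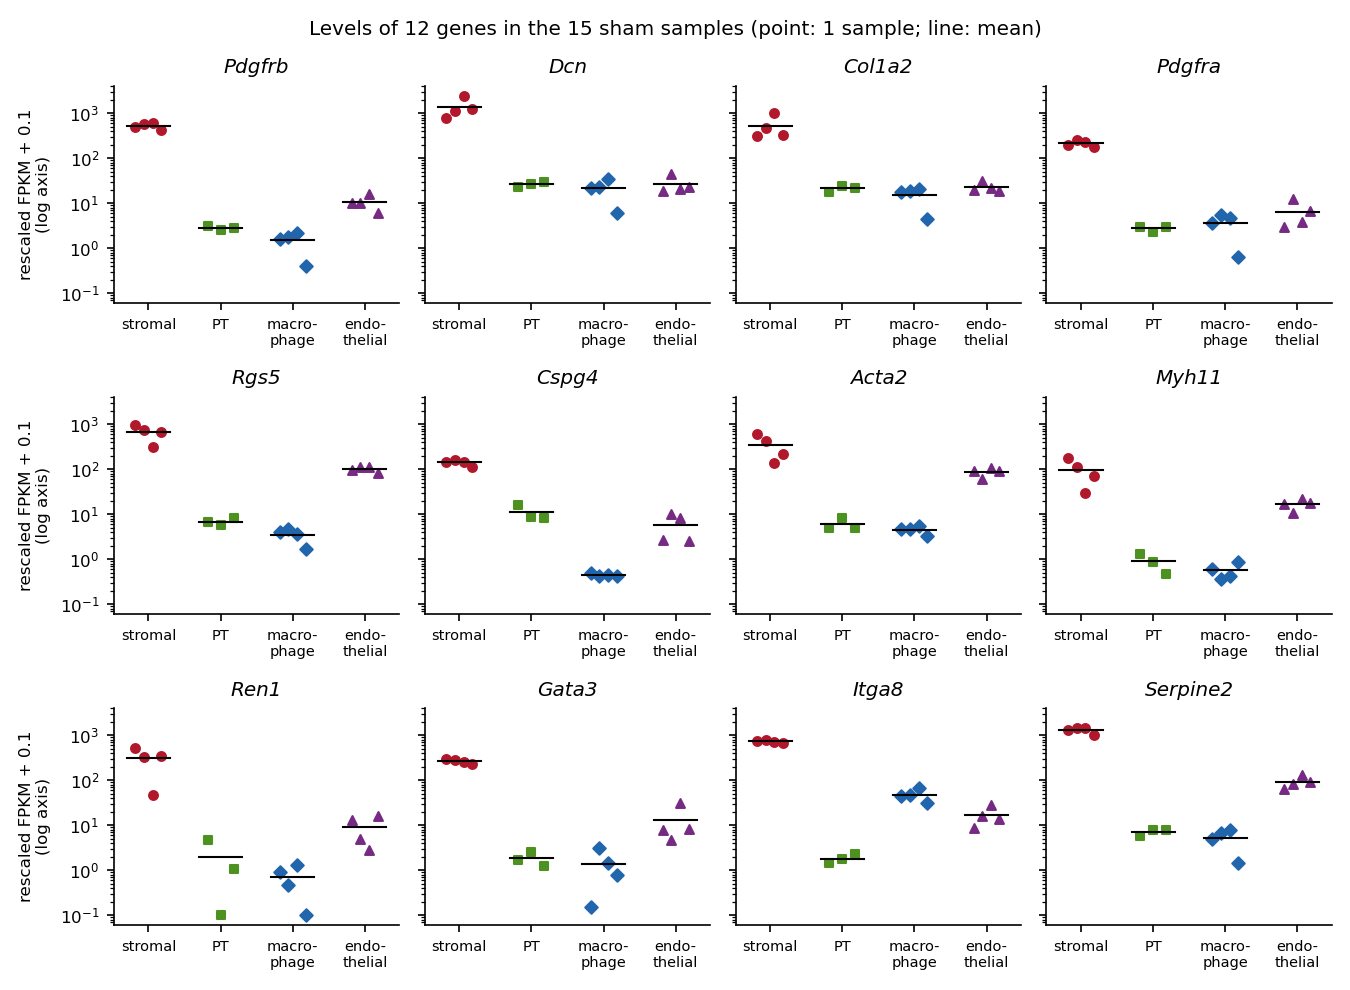
Levels of 12 genes in the 15 sham samples, on a log axis of rescaled FPKM + 0.1, with 1 panel per gene, 1 point per sample and a line at the mean. In each panel the 4 stromal samples lie above all 11 others, and stromal sample 3 has the highest Dcn and Col1a2 and the lowest Acta2, Myh11 and Ren1 of the 4.

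Stromal cells differed from each of the other populations in many genes. Against PT cells 6636 genes (39.2%) were higher and 1947 (11.5%) lower, against macrophages 6296 (37.2%) were higher and 2106 (12.4%) lower, and against endothelial cells 2523 (14.9%) were higher and 1341 (7.92%) lower. The balance of higher and lower genes depended on the scaling. The median log2 difference over all genes tested was 0.72, 0.51 and 0.20 in the 3 comparisons, against 0.00497 to 1.40, -0.038 to 0.30 and -0.028 to 0.17 under 4 other scalings. A further scaling, which also left out abundant non-messenger rows, gave 0.78, 0.56 and 0.22. After quantile normalization the counts were 3561 higher and 3300 lower, 3973 and 3872, and 1939 and 1761. With FPKM as deposited they were 8482 and 1120, 3981 and 2851, and 1985 and 1446. With the mitochondrial genes kept in the rescaling they were 10162 and 855, 4868 and 2465, and 2304 and 1266, and with median-ratio size factors 4817 and 2629, 4008 and 3498, and 2119 and 1506.

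A total of 1471 genes (8.69% of those tested) were higher in stromal cells than in each of the 3 other populations, and are called identity genes below. Of these, 652 (3.85% of those tested) were higher by at least 2 on the log2 scale in all 3 comparisons, a count that was 422 when only genes with a mean of at least 5 were tested. The mirror set was far smaller, with 68 genes (0.402%) lower in stromal cells than in all 3, although this count was 244 after quantile normalization, 151 with median-ratio size factors and 41 with the mitochondrial genes kept. In 1247 of the 1471 identity genes (84.8%) the lowest stromal sample lay above every other sham sample, against 8.80% of all genes tested. The same sham values chose the identity genes, so this share describes them and gives no separate support. Protein-coding genes made up 89.9% of the identity genes and 80.1% of all genes tested. The median stromal mean of an identity gene was 29.5 rescaled FPKM, and 349 identity genes had a mean under 10.

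Endothelial cells were most often the nearest population. The smallest of the 3 differences was the one from endothelial cells in 986 identity genes (67.03%), from PT cells in 280 (19.0%) and from macrophages in 205 (13.9%). Over all genes tested these shares were 43.1%, 25.8% and 31.1%. Genes that were higher in stromal cells than in 2 populations and not called against the third showed the same order. There were 1934 such genes (11.4%) for endothelial cells, 353 (2.08%) for PT cells and 258 (1.52%) for macrophages. At the threshold itself, the weakest of the identity calls were those of Wtip (adjusted p = 0.0498 against endothelial cells), Map3k6 and Syncrip, which turned below macrophages after quantile normalization and with median-ratio size factors, and the genes that missed it most narrowly were Pard3 (adjusted p = 0.0501 against PT cells), Gm38394 and C530043K16Rik.

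The 25 identity genes with the largest difference from the nearest population were 4.99 to 6.59 higher on the log2 scale, and their stromal mean was 33.4 to 276 times the highest mean of another population. Pcp4 on chr16 (GRCm38, chr16:96467606-96525793), which encodes a small calmodulin-binding peptide, led them. It had 152, 172, 126 and 191 rescaled FPKM in the 4 stromal samples and at most 2.31 in any other sham sample, a difference from PT cells of 6.59 ± 0.44 (SE, adjusted p = 1.96e-09). Secreted Wnt modulators were represented by Sfrp4 and Sfrp2, which encode secreted frizzled-related proteins. Sfrp4 had 299.8, 242, 445 and 581 in the stromal samples and at most 15.6 elsewhere. Sfrp2 had a higher level per length, 2106, 2163, 2730.2 and 1744, and stood 5.35 ± 0.35 above endothelial cells, whose samples had 37.4 to 106.

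Several of the 25 encode proteins that bind or cross-link matrix. Mfap4 and Dpt (dermatopontin) act on elastic and collagen fibres, and their differences from the nearest population were 5.60 ± 0.43 and 5.53 ± 0.50. Fmod (fibromodulin) and Ogn (osteoglycin) belong to the same proteoglycan family as Dcn, with differences of 5.30 ± 0.65 and 5.08 ± 0.59. Col6a2, a chain of the microfibrillar collagen VI, had 76.1, 141, 340.5 and 112 rescaled FPKM in the stromal samples and at most 3.57 elsewhere. Smoc2, Islr and Igfbp6 encode secreted proteins, and C7 encodes a component of the complement membrane attack complex. Rbp4, the plasma carrier of retinol, had 41.9, 71.8, 120.2 and 107 in the stromal samples and at most 1.03 in any other sham sample.

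Receptors and signalling proteins made up most of the rest. Pdgfra, the receptor that marks fibroblasts, had 198, 248, 228 and 177 rescaled FPKM, S1pr3, a receptor for sphingosine-1-phosphate, had 368, 382, 408 and 353, and Cd248 (endosialin) had 341, 314, 426 and 279. These receptor genes varied by 1.16- to 1.53-fold among the 4 stromal samples. Gucy1a2 encodes a subunit of the nitric oxide-sensitive guanylate cyclase, Trpc4 a cation channel, Robo1 a Slit receptor, Fhl2 a LIM-domain protein and Wisp2 a CCN family protein. Their differences from the nearest population lay between 4.99 for Robo1 and 5.23 for Fhl2. Plac9b and Iglon5 completed the 25, and Plac9b has a near-identical copy with which it may share reads.

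Most genes of the proteoglycan, collagen, elastic fibre and fibroblast lists were identity genes, and fewer of the basement membrane list were. All 9 small leucine-rich proteoglycans were identity genes, where 8.69% of all genes tested were. So were 15 of 19 tested collagens of 20 listed, 10 of 16 tested elastic fibre genes of 17 and 10 of 14 fibroblast genes. Of the basement membrane list 2 of 10 were, but the collagen IV chains and Col18a1 were counted among the collagens. The median difference from the nearest population was 3.98 for the proteoglycans, 4.38 for the fibroblast list, 2.39 for the collagens, 2.05 for the elastic fibre genes and -0.17 for the basement membrane genes, against -0.31 over all genes tested. Some genes belong to more than 1 list. These lists and those below were chosen with results of these data known, so their counts are descriptions and not tests.

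Among the collagens, the chains of collagens I, III and VI stood highest above the other populations. Col3a1 had 721, 1009, 1907 and 563 rescaled FPKM in the stromal samples and 24.1 to 42.4 in endothelial cells, a difference of 4.93 ± 0.41 (SE, adjusted p = 8.98e-08). Col1a1 had 258, 341, 851 and 259 and at most 24.2 elsewhere. Of the 6 network-forming collagen IV chains of basement membranes, 4 were identity genes, with smaller differences. Col4a1 was 0.88 ± 0.27, Col4a2 1.20 ± 0.23, Col4a5 2.498 ± 0.55 and Col4a6 1.69 ± 0.33 above endothelial cells. Col4a3 and Col4a4 were not called against PT cells, and Col4a3, with 44.5, 38.1, 26.5 and 32.4, was -0.83 ± 0.39 relative to PT cells (adjusted p = 0.0868). Col14a1, a fibril-associated collagen, had 60.5, 96.3, 199 and 85.3 against 66.4 to 86.9 in macrophages and was not called between them. Col15a1 had 105, 96.1, 272 and 119 against 121 to 308 in endothelial cells and was not called either.

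Bgn (biglycan) and Dcn had the highest levels per length among the proteoglycans. Bgn had 2329.9, 2074, 2559.6 and 2288 rescaled FPKM in the stromal samples and 277 to 371 in endothelial cells. Of the elastic fibre genes, Eln, which encodes elastin itself, had 139, 108, 126 and 144 against 26.9 to 63.1 in endothelial cells, a difference of 1.58 ± 0.33 (SE, adjusted p = 0.00154). Fbn1 (fibrillin-1) and the cross-linking enzyme Lox were 2.80 ± 0.36 and 2.67 ± 0.49 above endothelial cells. The opposite held for Fbln2, Fbln5 and Ltbp1, which were lower in stromal than in endothelial cells, with log2 differences of -1.74 ± 0.54, -0.87 ± 0.30 and -0.83 ± 0.24. Of the basement membrane genes, all 10 were higher than in PT cells and than in macrophages, but only Lama2 (laminin alpha 2) and Nid1 (nidogen-1) were also higher than in endothelial cells, and Hspg2 (perlecan) and Lama4 were lower than in them. Lama2 had 43.2, 53.5, 62.2 and 41.0 rescaled FPKM in the stromal samples and at most 3.47 elsewhere.

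**Figure D2:**
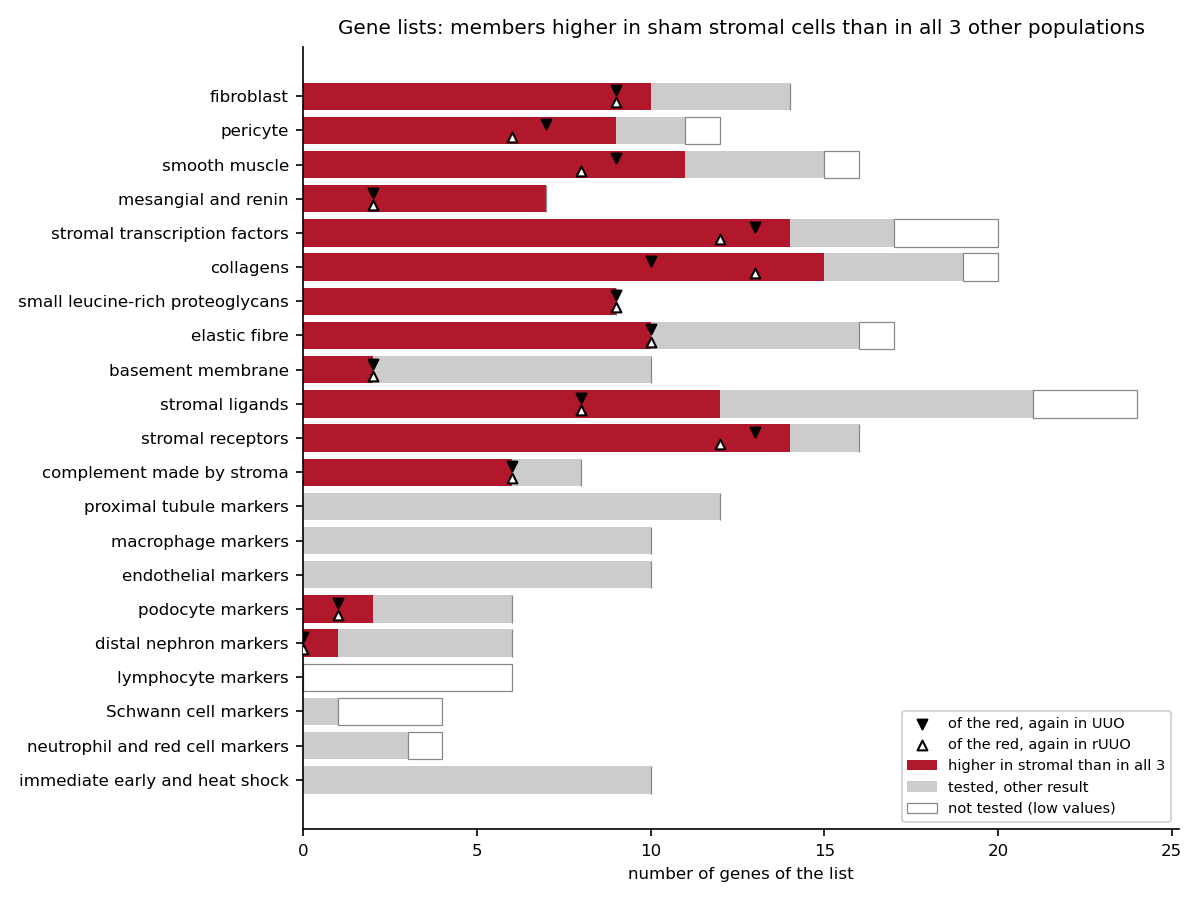
Number of genes in each of 21 lists that were higher in sham stromal cells than in all 3 other populations (red), that were tested with another result (grey) or that were not tested for low values (white). Triangles give how many of the red genes were again higher than in all 3 among UUO (filled) and rUUO (open) samples, which was 9 and 9 of 10 in the fibroblast list and 2 and 2 of 7 in the mesangial and renin list.

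Of the fibroblast list, the 4 genes that were not identity genes were not higher than in endothelial cells. Pi16 had 124, 130.5, 228 and 146 rescaled FPKM in stromal samples and 485 to 781 in endothelial samples, and Ly6a, which encodes the surface antigen Sca-1, had 429.6, 522, 838 and 595 against 2809.9 to 4661. Both were lower in stromal cells (adjusted p = 0.00224 and 2.11e-07). Cd34 and Thy1 were not called against endothelial cells. Nt5e, which encodes the ecto-5'-nucleotidase CD73, was an identity gene with 187, 170.3, 182 and 136 in the stromal samples, 11.1 to 19.0 in PT cells and 4.43 to 11.2 in endothelial cells.

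Contractile and pericyte genes were mostly identity genes as well, with endothelial cells as the usual nearest population. In the pericyte list 9 of 11 tested genes of 12 were identity genes, with a median difference of 2.62. In the smooth muscle list 11 of 15 tested genes of 16 were, with a median of 1.77. Over all genes tested the share was 8.69%. Rgs5, a regulator of G-protein signalling in pericytes, had 955, 726, 304 and 687 rescaled FPKM in the stromal samples and 80.4 to 114 in endothelial samples. Cspg4, which encodes the pericyte proteoglycan NG2, had 145, 161, 145 and 115 and at most 15.7 elsewhere. Des (desmin) and Ndufa4l2 stood 4.73 ± 0.42 and 4.40 ± 0.35 above endothelial cells. Cspg4, Des and Notch3 varied by 1.40- to 1.44-fold among the 4 stromal samples, whereas Rgs5 varied 3.14-fold and was lowest in sample 3. Mcam, which encodes CD146, had 219, 198, 203 and 154 against 86.4 to 145 in endothelial cells and was 0.80 ± 0.28 higher (adjusted p = 0.0449). Vtn (vitronectin) was called at low levels, with 0.317, 12.9, 4.64 and 0.560 in the stromal samples, and sample 1 lay below the 0.435 of 1 PT sample.

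Acta2, which encodes smooth muscle actin, had 608, 414, 136 and 213 rescaled FPKM in stromal samples 1 to 4, and Myh11, the smooth muscle myosin heavy chain, had 178, 114, 29.4 and 68.9. In endothelial samples they had 59.1 to 105 and 10.4 to 21.8. Sample 1 was highest and sample 3 lowest for both, and the stromal and endothelial groups still did not overlap. Their differences were 1.77 ± 0.37 and 2.25 ± 0.43 (SE, adjusted p = 0.0015 and 8.28e-04). Myl9, the regulatory myosin light chain, had a higher level per length and varied less, with 2168, 1642, 1942 and 1422 against 92.1 to 139 in endothelial cells, a difference of 3.92 ± 0.32. Cnn1 (calponin-1) had 151, 28.7, 1.03 and 12.4, overlapped the endothelial range of 0.941 to 34.9 and was not called. Sncg was lower in stromal than in endothelial cells.

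The smooth muscle list is known to be driven through serum response factor, which binds CArG boxes, and through TEAD factors, which bind the MCAT element CATTCC, so its promoters were searched for these letters on both strands, and for TATAAA. RefSeq promoters (GRCm38.p6, 250 bases before to 50 after each start) were found for 9 of the 11 identity genes of the list. MCAT letters were present in 6 of the 9, against 17.8% of the 1010 identity genes with a promoter, 14.7% of the 11141 genes tested with one and 16.6% of all 27025 genes with one. The CArG box was searched only in its strict form, with nothing but A or T between CC and GG. Forms with another letter there were not counted, so a promoter without a match may still hold such a form. The strict form was present in 1 of the 9, against 2.38% of identity genes, 1.60% of genes tested and 1.81% of all genes. TATAAA was present in 1 of the 9, against 11.3%, 9.45% and 15.7%. The genes of the list were chosen with results of these data known, so no test was made, and the motifs searched share no bases in the windows shown. The windows are printed on the strand of the gene, with the motif or its reverse complement in capitals. They are stretches of these contractile gene promoters that hold the letters searched. The MCAT windows of Flna and Smtn and the TATAAA window of Synpo2 are not shown.
Myl9, CArG, chr2:156775293-156775322, plus strand: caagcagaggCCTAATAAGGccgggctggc
Acta2, MCAT, chr19:34255504-34255529, minus strand: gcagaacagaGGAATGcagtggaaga
Mylk, MCAT, chr16:34784782-34784807, plus strand: cagttcagaaCATTCCctggtacgtg
Tpm1, MCAT, chr9:67049254-67049279, minus strand: gctgtcctaaGGAATGcggtcgcccc
Lmod1, MCAT, chr1:135324673-135324698, plus strand: aagattccctGGAATGtcctcaagtt
The motifs lie at -161, -146, -158, -56 and -130 relative to the starts of the 5 genes. A match of letters is a description of the sequence and not a binding site.

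All 7 mesangial and renin genes were identity genes, against 8.69% of all genes tested, with a median difference of 3.95 from the nearest population. Itga8, an integrin chain of mesangial cells, had 754, 790.3, 697 and 664 rescaled FPKM in the stromal samples, 31.8 to 65.4 in macrophages and 8.60 to 28.4 in endothelial cells. Serpine2 (protease nexin-1) had 1282, 1418, 1464 and 1008 and Agtr1a, the angiotensin II receptor type 1a, had 832, 763, 782 and 696. Gata3, a transcription factor of mesangial cells, had 301, 281, 258 and 231 and at most 30.7 elsewhere, and Hopx had 204, 166, 164 and 185. These 5 genes varied by 1.19- to 1.45-fold among the stromal samples. Renin varied more, as Ren1 had 532, 329, 46.7 and 341 in samples 1 to 4, with sample 3 lowest, against 2.73 to 16.2 in endothelial cells. Its difference was 4.76 ± 0.69 (SE, adjusted p = 5.07e-05). Akr1b7, an aldo-keto reductase of renin cells, had 85.9, 51.6, 55.2 and 78.3.

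Transcription factors of stromal cells were mostly of low to moderate level. In the list, 14 of 17 tested genes of 20 were identity genes, against 8.69% of all genes tested, and the median difference was 1.96. Heyl, a Notch target of mural cells, stood highest above the nearest population at 4.45 ± 0.32, with 71.9, 84.4, 57.6 and 54.0 rescaled FPKM. Tcf21, of interstitial cells, had 58.5, 49.9, 42.7 and 112 and Nr2f2 248, 353, 313 and 376, the latter against 35.6 to 55.0 in PT cells, the nearest population. Prrx1, a mesenchymal homeobox gene, had 7.21, 23.4, 91.6 and 21.1, with sample 3 far above the others. The hedgehog effectors Gli1, Gli2 and Gli3 were identity genes at levels of 1.15 to 13.2. Meis2 was expressed in the stroma but lower than in endothelial cells, with 104, 114, 102 and 86.8 against 293 to 584. Foxd1, Tbx18 and Hand2 were not tested for low values, and Foxd1, the marker of the embryonic stromal progenitor, had 1.68, 2.49, 1.49 and 2.67.

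Secreted signals were identity genes in 12 of 21 tested genes of 24, against 8.69% of all genes tested. Ptn, which encodes the heparin-binding growth factor pleiotrophin, had the highest level per length, with 2662, 2587, 2119.6 and 2113 rescaled FPKM against 58.7 to 140.4 in endothelial cells, a difference of 4.77 ± 0.26 (SE, adjusted p = 1.16e-09). Gdf10, a TGF-beta family member, and Pgf (placental growth factor) stood 4.75 ± 0.37 and 4.32 ± 0.34 above endothelial cells. Wnt5a had 19.1, 33.0, 27.3 and 30.6, the Wnt agonist Rspo1 6.09, 15.9, 37.3 and 15.7 and the chemokine Ccl11 37.7, 58.3, 25.3 and 52.7. Cxcl12, Angpt1 and Il33 were not called against every population. Kitl and Csf1 were lower than in endothelial cells, and Csf1 had 55.6, 54.2, 55.4 and 39.3 against 88.0 to 160.2. Hgf, with 5.94, 5.15, 5.77 and 5.71, was lower than in macrophages, and Epo was listed at 0 in all 15 sham samples.

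Receptors gave 14 identity genes of 16, against 8.69% of all genes tested, with a median difference of 3.84. Beside the sorted Pdgfrb and Pdgfra, S1pr3, Cd248 and Agtr1a, the endothelin receptor Ednra had 98.0, 67.2, 61.4 and 61.6 rescaled FPKM and Gucy1a3, a subunit of guanylate cyclase, had 353, 369, 347 and 305. Its partner subunit Gucy1b3 had 86.2, 80.1, 72.2 and 72.1. Ednra was 3.72 ± 0.33, Gucy1a3 4.96 ± 0.31 and Gucy1b3 4.12 ± 0.29 above endothelial cells. The prostanoid receptors Ptgfr and Ptger3 were the exceptions, at 1.84 to 4.12 and 3.36 to 18.4.

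Most complement genes were identity genes, 6 of the 8 listed against 8.69% of all genes tested, and the median difference was 3.12. Serping1, the C1 inhibitor, had 938, 1143, 2018 and 954 rescaled FPKM and at most 48.1 elsewhere. C1s1 stood 4.90 ± 0.28 above endothelial cells, although it has a close paralog that may share its reads. C3, the central component, had 234, 685, 1396 and 176, with sample 3 highest and sample 4 lowest, 7.93-fold apart, and 18.9 to 62.0 in macrophages. Cfb, of the alternative pathway, was lower in stromal than in PT cells, with 28.3, 131, 207 and 17.6 against 432 to 549.6. C4b had 8.11, 23.7, 55.8 and 7.39 and was not called against macrophages.

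Transcripts of other kidney cells were present as well. Of the 6 podocyte genes, Wt1 and Synpo were identity genes. Wt1, a zinc-finger factor of podocytes, had 166, 192, 109.6 and 129.8 rescaled FPKM against 5.82 to 18.02 in endothelial cells. The slit diaphragm gene Nphs1 was not called against endothelial cells, with 21.7, 22.6, 13.95 and 12.9 in stromal and 8.92 to 16.2 in endothelial samples. The 6 distal nephron genes summed to 933 to 1381 in stromal samples, 387 to 2123 in endothelial, 124 to 243 in PT and 115 to 192 in macrophage samples, and none was at 0. Umod, of the thick ascending limb, had 461, 595, 542 and 631, and Slc12a3, the cotransporter of the distal convoluted tubule, had 187, 238, 507 and 337 and was an identity gene (1.65 ± 0.47, adjusted p = 0.016). The part of such transcripts in the other differences was not tested. No immediate early or heat shock gene of the 10 listed was an identity gene, where 8.69% of all genes tested were. So short a list cannot be told apart from that share. Of the 10, 6, with Hspa1a and Atf3, were lower than in macrophages, where 12.4% of all genes were. All 10 were higher than in PT cells, where 39.2% of all genes were. Against endothelial cells 3 were higher and 3 lower, where 14.9% and 7.92% of all genes were.

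The genes most raised or lowered in single comparisons followed the sort. Against PT cells, Itga8, Myl9 and Plac9b were highest, by 8.07 ± 0.31, 8.03 ± 0.34 and 7.95 ± 0.48 on the log2 scale. Against macrophages, Sfrp2, Ptn and Ctgf, the gene of connective tissue growth factor, were highest, by 8.90 ± 0.35, 8.65 ± 0.26 and 8.40 ± 0.26. Against endothelial cells the largest were those of Pcp4, Sfrp4 and Rbp4. The largest falls were those of the PT genes Slc34a1, Spp2 and Slc5a2, of the macrophage genes Mgl2, Cd74 and H2-Eb1, and of AU021092, Cdh5 and Tmem88 in endothelial cells. Slc34a1, the sodium-phosphate cotransporter, had 65.6, 46.2, 27.6 and 52.9 rescaled FPKM in the stromal samples against 5429 to 6371 in PT samples.

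Genes that the stroma shared with 1 other population differed in kind. The 5 with the highest stromal mean were looked at for each population. With endothelial cells it shared Sparc, a matricellular glycoprotein, at 3902, 4037, 6787 and 3859.7 against 3003 to 3655 rescaled FPKM, as well as Igfbp5, Myl6, Ptma and Klk1, a kallikrein of the distal tubule. Klk1 had 765, 1140, 1603 and 1973 in stromal samples and 590, 583, 2916 and 781 in endothelial samples 1 to 4. Endothelial sample 3 also had the highest Umod and Slc12a3 of the endothelial samples. Macrophages shared Serpinf1, Pfn1, Wnk1, Rgs2 and Rrbp1. Serpinf1, which encodes the secreted factor PEDF, had 326, 472, 1496 and 417 against 306 to 398, and Rgs2, a brake on vasoconstrictor signalling, had 496, 442, 371 and 381 against 378 to 592. For PT cells the shared genes were Ptms, Smarca2, Bloc1s1, Igfbp4 and Sdc4, with Igfbp4 at 418, 428, 408 and 315 against 290.1 to 340.2. In none of these 15 genes was the difference from the sharing population called, which does not show that the levels were equal. The groups did not overlap for Sparc and Ptms, which were higher in every stromal sample, or for Rrbp1, which was lower.

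Among the 68 genes lower than in all 3, the largest distances were those of Cd36, Slc46a3, Gcnt1, Itga6 and Fmnl1. Cd36, the fatty acid scavenger receptor, had 8.33, 8.66, 4.47 and 17.0 rescaled FPKM in the stromal samples against 65.9 to 100.4 in PT, 283 to 411 in macrophage and 191 to 256 in endothelial samples. Itga6, the laminin receptor chain, had 19.1, 30.0, 15.9 and 24.7 against 90.9 to 112 in PT, 77.5 to 117 in macrophage and 162 to 302 in endothelial samples.

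The 4 stromal samples were not alike in their mix of fibroblast and mural transcripts. Sample 3 had the highest value of 8 of the 10 fibroblast identity genes, 11 of the 15 collagens, 7 of the 9 proteoglycans and 5 of the 6 complement genes. For the 11 smooth muscle identity genes sample 1 was highest in 9 and sample 3 lowest in 6 and highest in none. Sample 4 was lowest in the other 5 and also highest in none. The fibroblast list summed to 4492, 5729.5, 10406 and 4979 rescaled FPKM in samples 1 to 4, and the smooth muscle list to 5981, 4736, 3891 and 3673. Mesangial and renin genes other than Ren1 varied by at most 1.66-fold. Among the 870 identity genes with a stromal mean of at least 20, sample 3 was highest in 309 (35.5%) and sample 4 lowest in 386 (44.4%). Without sample 3 there were 1372 identity genes, of which 1261 were among the 1471.

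**Figure D3:**
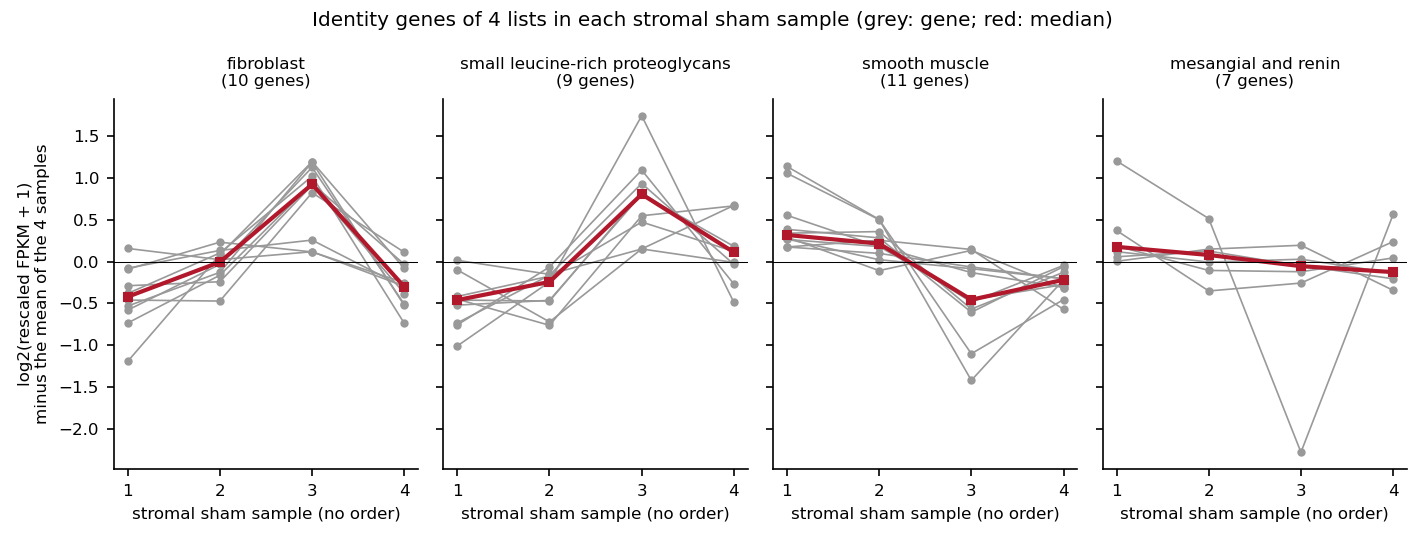
Identity genes of 4 lists in each of the 4 stromal sham samples, as log2(rescaled FPKM + 1) minus the gene's mean over the 4 samples; a grey line joins the values of 1 gene, the red line is the median, and the sample numbers carry no order. Sample 3 is high for the fibroblast and proteoglycan genes, and samples 3 and 4 hold the lowest values of the smooth muscle genes. The gene far below 0 in the mesangial and renin panel is Ren1.

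The identity genes were then looked at in UUO and rUUO samples, which the sham comparisons had not used. In the 15 UUO samples 1318 of the 1471 were tested and 644 (43.8%) were again higher in stromal cells than in all 3 other populations, where 7.68% of all genes tested were. In the 14 rUUO samples 1363 were tested and 710 (48.3%) were again higher, where 7.61% of all genes were. A total of 581 were again higher in both and 698 in neither. Of the 652 genes with the larger differences, 409 (62.7%) were again higher in UUO and 443 (67.9%) in rUUO. The sham calls of the 130 identity genes chosen for naming were repeated under 27 other ways of processing. Of the 130, 111 were called higher than in all 3 under every one in which they were tested. The 19 others were Fgfr1, Flna, Gli2, Omd, Il34, Rspo3, Smtn, Slc12a3, Col4a1, Col18a1, Synpo, Vtn, Ebf1, Cox4i2, Mcam, Map3k6, Tgfbr3, Syncrip and Wtip. In UUO 801 of the 1471 were again higher than in PT cells, where 18.3% of all genes were, 1029 than in macrophages (25% of all genes) and 766 than in endothelial cells (13.1%). In rUUO these counts were 996 (27.9% of all genes), 1151 (31%) and 809 (12.3%).

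The lists of matrix genes differed in how far their calls recurred. All 9 proteoglycans, all 10 elastic fibre genes, both basement membrane genes and all 6 complement genes were again higher than in all 3 in UUO and in rUUO, as were 9 of 10 fibroblast genes. Of the 15 collagens 10 were again higher in UUO and 13 in rUUO. Those not called in UUO were Col4a1, Col4a2, Col4a5, Col4a6 and Col18a1, of which Col4a1 and Col4a2 were not called in rUUO either. Of the 25 leading genes, 23 were again higher in UUO and 24 in rUUO. Dcn, for example, had 3659, 5739.5, 3237 and 8304 rescaled FPKM in stromal UUO samples and a difference from the nearest population of 6.83 ± 0.30 (limma, adjusted p at most 1.39e-10 in the 3 comparisons). Sfrp4 was 6.71 ± 0.44 higher in UUO and 7.30 ± 0.56 in rUUO, and Pdgfra 6.29 ± 0.39 and 6.00 ± 0.35. Col1a1 had 7269, 5186, 4074 and 5295 in stromal UUO samples, all above the sham samples.

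**Figure D4:**
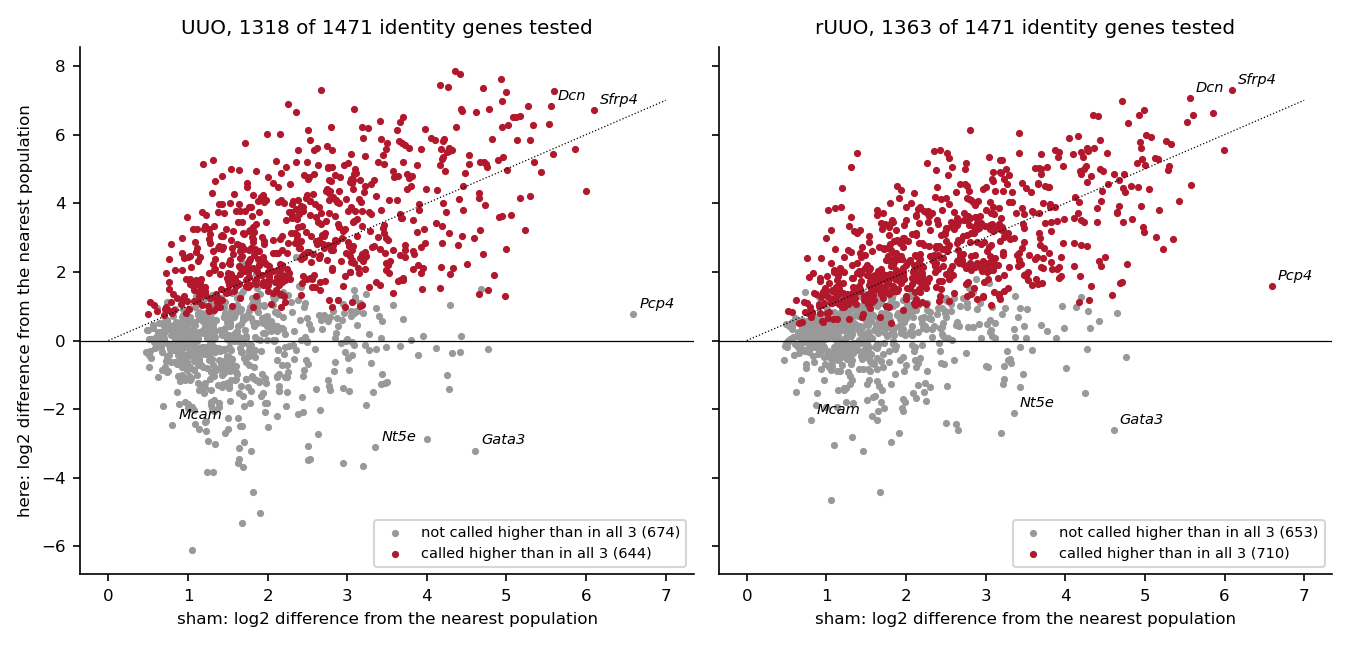
Each point is an identity gene, with its log2 difference from the nearest population in sham samples on the horizontal axis and the same in UUO (left) or rUUO (right) samples on the vertical axis; red points were called higher than in all 3 there, the dotted line marks equal differences and the horizontal line 0. Dcn and Sfrp4 lie at the top right, whereas Gata3 and Nt5e lie below 0.

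Few mesangial and renin genes were called again. Only Serpine2 and Agtr1a of the 7 were again higher than in all 3 in UUO, and the same 2 in rUUO. Gata3 had 1.14, 4.38, 1.51 and 1.84 rescaled FPKM in stromal UUO and 2.05, 6.55, 3.52 and 4.57 in stromal rUUO samples, below the PT samples of those groups at 15.4 to 41.1 and 18.05 to 42.1. Itga8 had 5.81, 21.1, 54.4 and 19.0 in UUO and 24.6 to 45.1 in rUUO. For Hopx the UUO values were 1.06, 1.48, 5.33 and 1.08 and the rUUO values 2.46 to 5.67, and Ren1 had 10.04, 54.2, 25.7 and 10.8 in UUO and 1.99 to 10.01 in rUUO. Every one of these values was below all stromal sham samples of the same gene, except the 54.2 of Ren1 in 1 UUO sample, which exceeded the 46.7 of sham sample 3. Agtr1a was below its sham samples too, at 16.4, 51.2, 78.8 and 58.1 in UUO, and above the other populations there (1.54 ± 0.45 from PT cells, adjusted p = 0.0126).

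Some genes outside that list were low there as well. Pcp4, the leading identity gene in sham, had 6.38, 2.90, 5.38 and 25.1 rescaled FPKM in stromal UUO samples and was not called there (difference from the nearest population 0.78 ± 0.49, adjusted p = 0.252), and it had 13.3, 12.2, 18.9 and 11.7 in rUUO, where it was called (1.58 ± 0.44, adjusted p = 0.00922). Trpc4 was not tested in either group for low values. Nt5e had 1.52, 1.11, 5.52 and 1.30 in stromal UUO samples and lay below every PT sample. Mcam had 35.3, 52.9, 67.4 and 14.9 and was lower than in endothelial cells (-2.45 ± 0.48, adjusted p = 9.39e-04). Pgf, with 8.29, 15.1, 5.10 and 3.27, was not called. Pericyte and smooth muscle identity genes were again higher in 7 of 9 and 9 of 11 in UUO and in 6 of 9 and 8 of 11 in rUUO. The distal nephron genes summed to 60.1 to 152 in stromal UUO and 114 to 216 in stromal rUUO samples, and the podocyte genes to 139 to 311 and 283 to 389, all below their sums in stromal sham samples. The PT markers, at 48.8 to 75.0 and 43.4 to 184, and the endothelial markers, at 97.9 to 167 and 157 to 281, were below their sham sums too. The immediate early and heat shock genes summed to 1441 to 2761 in UUO and 1619 to 2928 in rUUO, above the 546 to 769 of the sham samples. The part of these in the loss of calls was not tested, and a difference between sham and UUO in these genes was not tested because sham values chose them.

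**Figure D5:**
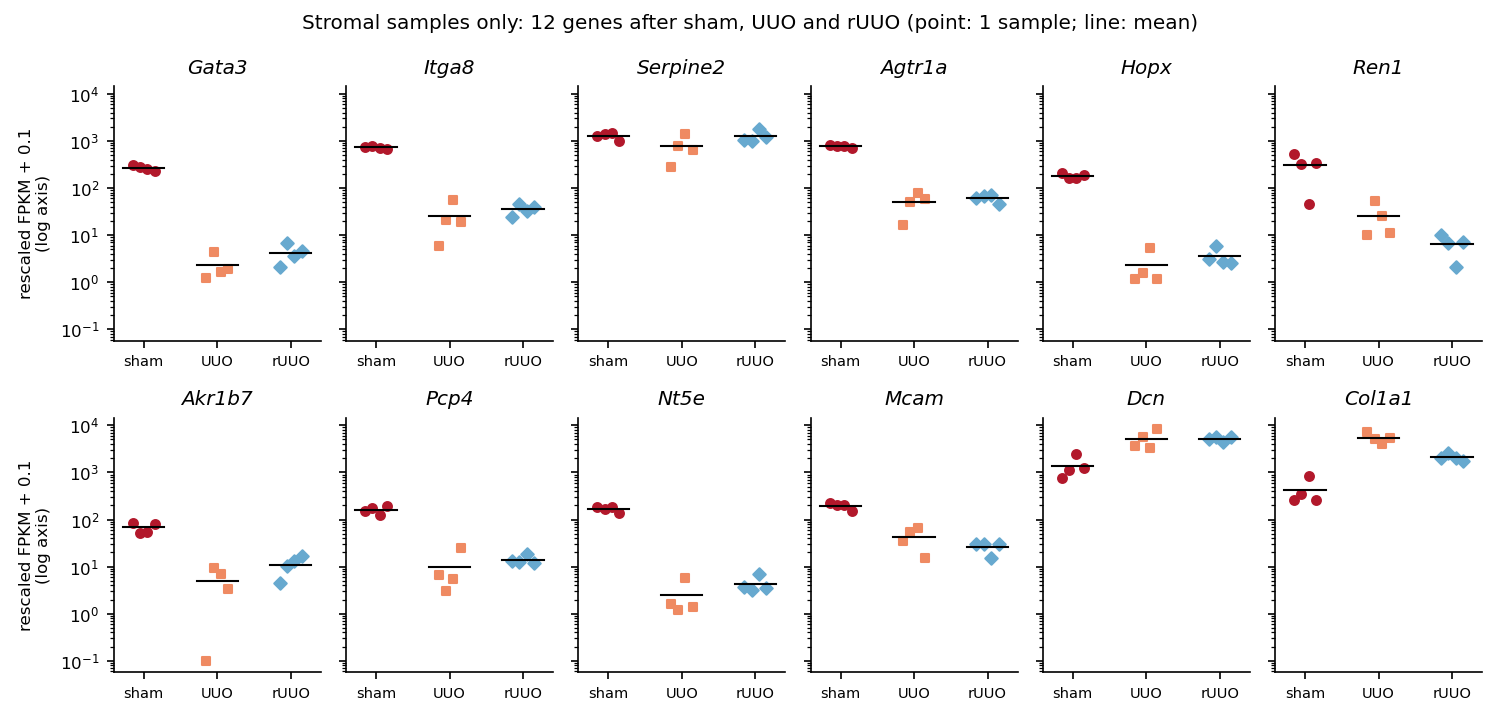
Levels of 12 identity genes in the stromal samples only, after sham, UUO and rUUO (4 samples each), on a log axis of rescaled FPKM + 0.1, with 1 point per sample and a line at the mean. Gata3, Itga8, Agtr1a, Hopx, Akr1b7, Pcp4, Nt5e and Mcam are lower in every UUO and rUUO sample than in every sham sample, and Dcn and Col1a1 are higher.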

How the data were processed

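The sorted samples were profiled by RNA-seq of amplified cDNA. The authors deposited 1 table of FPKM values for 53465 genes, with 2 decimals. The submitters' processing notes name FastQC, Bowtie2, RSEM, DESeq2 and the mm10 build, without versions. Of 46 value columns, 44 were used; the 2 others shared the name of a single endothelial UUO sample. Gene identifiers matched GENCODE M21 for 50690 genes.

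Values were rescaled to a sum of 1000000 per sample without the 37 chrM genes. Genes with a mean of at least 1 over the fitted samples were tested on log2(value + 1) with limma 3.58.1 in R 4.3.3 (lmFit, then eBayes with an intensity trend), with a threshold of 0.05 on the Benjamini-Hochberg adjusted p. The 15 sham samples shared 1 fit, as did the 15 UUO and the 14 rUUO samples. Differences shrink for low genes through the pseudocount of 1. The script was tested on simulated data. Relative depth came from 9231 short single-exon genes. Tables and figures were made with Python 3.11.15, pandas 2.3.3, numpy 2.4.6 and matplotlib 3.10.9. Whether equal replicate numbers mark 1 animal is not known, and the samples were not paired.

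The gene lists and members were chosen with earlier results of these data known. The genes named were the 25 leading identity genes, the 3 largest rises and falls of each comparison, the 5 most expressed genes shared with each population, the 5 furthest below all 3, 3 on each side of the threshold, and list members. Alternatives were the deposited FPKM, mitochondrial genes kept, quantile and median-ratio scaling, another pseudocount, other filters, other fits, and leaving out each sample. An alternative without abundant non-messenger rows was chosen after seeing the data. Some list members are counted but not reported here by name.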

Additional observations from a re-analysis of the deposited data

Results flagged for a closer look

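Single stromal sham samples stood apart from the other 3 by Dixon's criterion in 19 of the 252 genes looked at, where chance flags about 1 group in 20. Sample 3 was high for 9 of them, most of which encode matrix or secreted proteins. It had 203 rescaled FPKM of Smoc2, 441 of Fmod, 291 of Igfbp6, 851 of Col1a1, 272 of Col15a1, 1496 of Serpinf1 and 6787 of Sparc. It also had 799 of Gsn (gelsolin) and 55.8 of the receptor gene Fgfr1, and it was low for Gli1 at 1.15. Sample 4 was low for Robo1 at 55.4, Flna at 161, Col4a2 at 203 and Csf1 at 39.3. Sample 2 was low for Iglon5 at 59.8 and Egfl7 at 27.3, and high for Tmem88 at 4.03. Sample 1 was high for Ednra at 98.0 and S100a9 at 1.02.

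In 28 comparisons every stromal sample lay on one side of every sample of another population in sham and on the opposite side after UUO or rUUO. The difference between the surgeries was not tested in any of them. Genes high in sham stroma and below PT cells afterwards included Gata3, with a stromal mean of 2.22 rescaled FPKM in UUO and 4.17 in rUUO, Nt5e with 2.36 and 4.20, and the kallikrein gene Klk1 with 42.7 and 84.1. Rgs2 lay below both PT and endothelial samples, with 17.2 and 17.8. Tubular genes turned against PT cells too, with 77.5 and 126 for Umod and, in UUO, 5.19 for Slc12a1, 9.91 for Slc12a3 and 1.01 for Aqp2. Cd14 had 9.53 in UUO and Atf3 17.5 in rUUO, both below PT cells. Against endothelial cells Mcam turned, with 42.6 in UUO and 26.6 in rUUO, as did Smtn with 58.0 in UUO.

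Other genes turned the opposite way. Mdk, the gene of the growth factor midkine, lay above PT cells with 475 in UUO and 843 in rUUO, and Gas6 with 250.1 in rUUO. Hgf, which was below macrophages in sham, had 40.5 and 25.2 and lay above them. Pi16 and Ltbp1 lay above endothelial cells in UUO, with 605 and 77.7, and Ltbp4 in rUUO with 296.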

How the results depend on the processing

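Of the counts of genes recomputed under the alternatives, 363 stayed within 1.5 times the value reported and 14 did not. With FPKM as deposited, 1120 genes were lower than in PT cells and 3981 higher than in macrophages. With mitochondrial genes kept, 10162 were higher and 855 lower than in PT cells, and 41 were lower than in all 3. After quantile normalization 3561 were higher and 3300 lower than in PT cells, 3973 higher and 3872 lower than in macrophages, and 244 lower than in all 3. With median-ratio size factors 4008 were higher and 3498 lower than in macrophages and 151 lower than in all 3. With a mean of at least 5, 422 identity genes were higher by at least 2 on the log2 scale. The cause of these moves was not tested. The number of identity genes was 1003 to 1714 under the planned settings that kept all samples and 1563 without abundant non-messenger rows. Leaving out 1 sample gave 1203 (without stromal sample 2) to 1511. Direction of the difference from the nearest population turned for 3 genes. Smarca2 was 0.54 above PT cells with FPKM as deposited. With mitochondrial genes kept its nearest population was endothelial cells, and it was 0.91 above them. Syncrip was at -0.00724 after quantile normalization and -0.090 with median-ratio size factors, and Angpt1 was at -0.922 after quantile normalization. With the replicate number as a block there were 1469 identity genes, of which 1417 were among the 1471. Same-numbered samples correlated at -0.028 to 0.13 in 21 pairs, of which 2 were over 0.1, against 0 of 63 other pairs. Those 2 were macrophage with endothelial sample 4 (0.134) and endothelial with stromal sample 2 (0.131). The 63 other pairs lay at -0.122 to 0.062. Whether equal numbers mark 1 animal is not settled by these correlations or by the labels. Depth and the rounding of FPKM to 2 decimals limit genes at low levels, such as Vtn and Gli1.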
